A study of Mus musculus with 3 samples.

Results

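The enzymes of glycolysis, of lactate and glycerol phosphate handling, of the pentose phosphate pathway and of glycogen turnover were compared between brown adipose tissue of Ad-Lkb1 mice and of wild-type (WT) littermates. The list held 36 genes in 4 branches. Each gene was matched through the RefSeq accession of its array probes, and it was kept if a probe was well above background in at least 1 channel on all 3 arrays. All 36 genes were found and kept, among 19328 genes and unnamed features tested, of which 13129 had a gene symbol. The rule for finding them used no ratio between the genotypes, though the list was drawn up with earlier results of these data known. Where several probes of a gene were kept, the brightest was used.

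Total RNA came from whole brown adipose tissue of male mice aged 10 weeks on regular chow. Each of the 3 two-colour Agilent arrays carried 1 Ad-Lkb1 sample in Cy5 and 1 WT sample in Cy3, and the design text calls the samples biological replicates. The series title names a deletion of LKB1, the kinase encoded by Stk11. Per the labels, Ad-Lkb1 samples were of strain C57BL/6J, and WT samples of C57BL/6. The promoter or Cre line behind the prefix Ad is not given in the sources used here. Dyes were not swapped, so a dye effect, the strain label and the genotype cannot be told apart. The labels do not say whether a sample was 1 animal or a pool.

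Glycolysis splits glucose into pyruvate and yields ATP, and lactate dehydrogenase turns that pyruvate into lactate. The pentose phosphate pathway branches off at glucose 6-phosphate and supplies NADPH and ribose, and glycogen stores glucose for later use. Brown adipocytes burn fat and glucose for heat, take up much glucose when activated, and use glycerol 3-phosphate both for triglyceride synthesis and for a shuttle that carries electrons into mitochondria. LKB1 activates AMPK, a kinase that senses low cellular energy.

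Stk11 itself was lower on every array, with log2 levels (normalised log2 intensities) of 8.36, 8.46 and 8.37 in Ad-Lkb1 tissue, against 9.62, 9.63 and 9.54 in WT tissue. The mean log2 ratio of Ad-Lkb1 over WT was -1.20 (SD 0.056, n = 3 arrays; limma, adjusted p = 0.0105). Where its only probe lies relative to the deleted part is not given in the sources used here. All 13 brown adipocyte markers were measured, 5 called higher and 1 lower, with 4 ratios below 0. Adrb3, the main adrenergic receptor of brown fat, was the lower one, with ratios of -0.74, -1.34 and -0.94 (adjusted p = 0.0283), and Ucp1, the uncoupling protein of brown fat, had a ratio of 1.48 (SD 0.19; adjusted p = 0.0114). The summed log2 level of these markers was 19.01 to 19.12 in Ad-Lkb1 samples and 18.31 to 18.51 in WT samples. Skeletal muscle markers divided the arrays instead of the genotypes. Their summed log2 level was 12.19, 14.74 and 14.75 in Ad-Lkb1 samples on arrays 1 to 3, against 14.52, 12.77 and 11.92 in WT samples, with 11 of 17 listed markers measured. The macrophage markers summed to a log2 level of 13.46 to 13.64 in Ad-Lkb1 samples, against 11.85 to 12.78 in WT samples. Of 15 measured macrophage markers 6 passed the test, all higher, and of 17 listed Cd163 and Clec7a were not measured. Ratios below 0 were found for 3 of the 15, Cx3cr1 (-0.32), Itgam (-0.093) and Cd14 (-0.027). All 7 fibroblast and matrix markers had positive ratios, and 5 of them passed. The white fat-enriched markers summed to 13.49 to 13.72 in Ad-Lkb1 samples, against 12.47 to 12.55 in WT samples. Nnmt (2.67) and Sncg (2.10) were called higher among 5, while the median ratio was 0.046 and 2 were below 0, Retn (-0.77) and Lep (-0.19). Of 5 measured neutrophil markers S100a8 (2.17) and S100a9 (2.39) were called higher, and Csf3r was at -0.19. The neutrophil sums overlapped, at 12.80 to 13.48 in Ad-Lkb1 samples and 12.58 to 13.25 in WT samples. The part of these cell types in the results that follow was not tested. The tissue was bulk, so fewer cells of a type and less RNA per cell cannot be told apart.

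Among the 36 genes, 14 passed the test at an adjusted p under 0.05 over all features (limma with Benjamini-Hochberg adjustment), while 8.70% of all features did so. Higher in Ad-Lkb1 tissue were 7 genes, Hk1, Tpi1, Pgk1, Pgam1, Ldha, Slc16a3 and Gys2, against 4.78% of all features called higher. Lower were another 7, Pfkl, Pfkfb1, Gpd2, Tkt, Taldo1, Pygl and Ppp1r3c, against 3.92% of all features called lower. Higher calls numbered 4 in glycolysis, 2 in lactate and glycerol phosphate, and 1 in glycogen. Lower calls were in all 4 branches, 2 in glycolysis, 1 in lactate and glycerol phosphate, 2 in pentose phosphate and 2 in glycogen. The levels of the 2 genotypes did not overlap for 23 of the 36 genes, against 36.3% of all features. The ratio lay on the same side of 0 on all 3 arrays for 27 genes, against 51.8% of all features. The median ratio of the 36 genes was -0.027, beside -0.0099 over all features.

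The calls depended on which arrays were fitted more than the ratios did. Fitted on 2 arrays, without array 1 or without array 2, none of the 19328 features passed in limma. At an unadjusted p under 0.05 there were 3928 features and 22 of the 36 genes without array 1, and 3563 features and 21 of the 36 genes without array 2. None of the 14 ratios changed sign. Pfkl was at -0.91 without either array, Gys2 at 0.96 without array 1 and 0.90 without array 2, and Tkt at -0.79 without array 1 and -0.74 without array 2. The fit without array 3 also used 2 arrays, but 2052 features passed in it, against 1681 with all 3 arrays. Without array 3, 11 of the 14 genes passed, and Tpi1, Ldha and Taldo1 did not. The split of 7 higher and 7 lower genes also rests on the scaling of the 2 channels by loess. Centring each array on the median of all probes gave 1 higher and 21 lower genes and moved the median of all tested features to -0.42. Centring on the median of the kept probes gave 3 higher and 14 lower genes. The scanner software's own processed signals gave 3 higher and 1 lower.

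**Figure D1:**
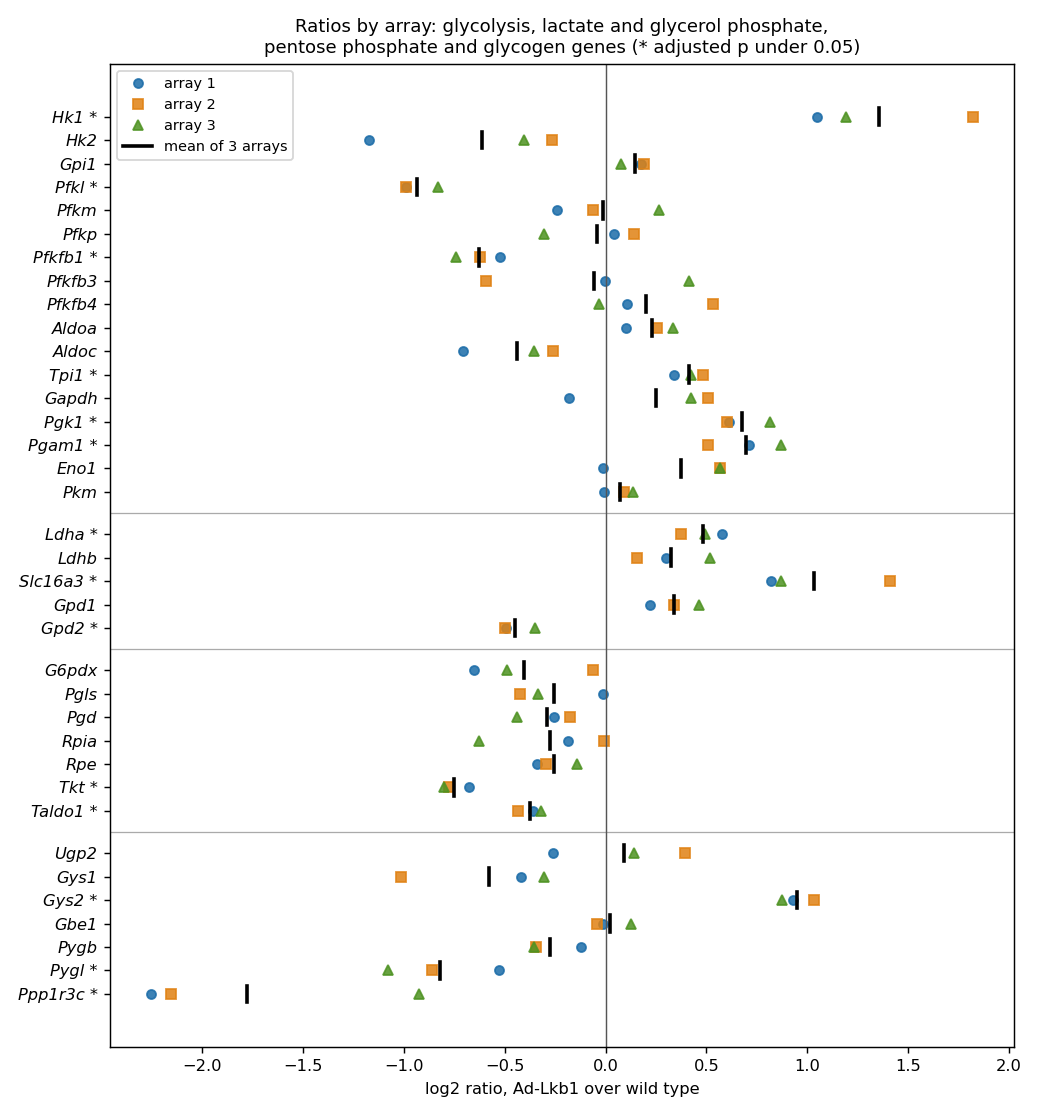
Log2 ratio of Ad-Lkb1 over WT (x axis) for the 36 genes (rows, by branch from glycolysis at the top to glycogen at the bottom), with 1 symbol for each of the 3 arrays and a bar at their mean. Asterisks mark the 14 genes past the threshold, and all 7 pentose phosphate genes lie below 0 on every array.

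Of glycolysis, 17 genes were measured. Hk1, Tpi1, Pgk1 and Pgam1 passed as higher, Pfkl and Pfkfb1 passed as lower, and the other 11 did not pass. The branch had 10 positive and 7 negative mean ratios with a median of 0.15, which became -0.54 with centring on all probes, -0.15 with centring on the kept probes and -0.051 in the deposited value table.

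Hk1 encodes hexokinase 1, which traps glucose in the cell as glucose 6-phosphate. Its log2 level was 11.40, 11.53 and 11.25 in Ad-Lkb1 samples, against 10.36, 9.71 and 10.06 in WT samples. Every Ad-Lkb1 sample was above every WT sample. The ratio was 1.35 (SD 0.41, n = 3; 2.56-fold; limma, adjusted p = 0.0256), and a second kept probe gave 0.69. With centring on all probes it was 0.64 and did not pass (adjusted p = 0.0823), nor did it in the value table (adjusted p = 0.0517) or without a filter on dim probes (adjusted p = 0.0582). Hk2, the insulin-responsive hexokinase of muscle and fat, had ratios of -1.18, -0.27 and -0.40, a mean of -0.62 (95% interval -1.14 to -0.089; adjusted p = 0.129). Hk2 minus Hk1 differed by -2.23, -2.09 and -1.60 on arrays 1 to 3. On arrays 1 to 3 the Hk1 ratio was 1.05, 1.82 and 1.19, and the macrophage marker median was 1.56, 2.04 and 0.56. Both were highest on array 2, but Hk1 was lowest on array 1 and the macrophage median on array 3. The fibroblast and matrix median was also highest on array 2, at 0.74, 1.11 and 0.60. The part of these cell types in the Hk1 result was not tested.

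Gpi1, which turns glucose 6-phosphate into fructose 6-phosphate, had a ratio of 0.15 (95% interval -0.036 to 0.33; adjusted p = 0.247). The next step is run by the phosphofructokinases, and of their 3 genes only the liver-type Pfkl passed. Its log2 level was 11.53, 11.70 and 11.57 in Ad-Lkb1 samples, against 12.52, 12.69 and 12.40 in WT samples. The genotypes were separate, and the 3 ratios of -0.99, -0.99 and -0.83 lay close together. The mean was -0.94 (SD 0.090; 1.92-fold lower; limma, adjusted p = 0.0129). The muscle-type Pfkm had a mean of -0.013 (95% interval -0.32 to 0.30) and the platelet-type Pfkp one of -0.041 (95% interval -0.34 to 0.25). Pfkl minus Pfkm was -0.75, -0.93 and -1.10, and Pfkl minus Pfkp was -1.03, -1.13 and -0.53, so Pfkl was the lower on each array.

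The Pfkfb genes encode enzymes that make and degrade fructose 2,6-bisphosphate, the main allosteric activator of phosphofructokinase. Pfkfb1, the liver and muscle form, had a log2 level of 9.78, 9.98 and 9.70 in Ad-Lkb1 samples, against 10.30, 10.60 and 10.44 in WT samples. All Ad-Lkb1 values were below all WT values. The ratio was -0.63 (SD 0.11; 1.55-fold lower; limma, adjusted p = 0.0252). Pfkfb3, the inducible form with the strongest kinase activity, scattered around 0 with -0.0016, -0.59 and 0.41. Pfkfb4 had 0.10, 0.53 and -0.032. Neither of these passed (adjusted p = 0.882 and 0.382).

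Aldolases split fructose 1,6-bisphosphate. Aldoa, the form of muscle and most tissues, had ratios of 0.10, 0.26 and 0.33 and did not pass (adjusted p = 0.145). Aldoc, the brain form, had -0.71, -0.26 and -0.36 (adjusted p = 0.0841). Aldoc minus Aldoa was -0.81, -0.52 and -0.69 on arrays 1 to 3. Aldoc was negative and Aldoa positive on each array.

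Tpi1, Pgk1 and Pgam1 encode triosephosphate isomerase, phosphoglycerate kinase 1 and phosphoglycerate mutase 1. Tpi1 had log2 levels of 14.14, 14.13 and 14.09 in Ad-Lkb1 samples, against 13.80, 13.64 and 13.67 in WT samples. Pgk1 had 15.03, 15.00 and 15.02 in Ad-Lkb1 samples, against 14.41, 14.40 and 14.21 in WT samples. Pgam1 had 15.00, 14.89 and 15.10 in Ad-Lkb1 samples, against 14.29, 14.38 and 14.23 in WT samples. The genotypes did not overlap for any of the 3 genes, and the Ad-Lkb1 levels of Pgk1 spread over less than 0.05. The ratio was 0.41 for Tpi1 (SD 0.071; 1.33-fold), 0.68 for Pgk1 (SD 0.12; 1.60-fold) and 0.70 for Pgam1 (SD 0.18; 1.62-fold). The limma adjusted p was 0.0414 for Tpi1, 0.0238 for Pgk1 and 0.0294 for Pgam1. With centring on the median of all probes Tpi1 was at -0.28, Pgk1 at -0.014 and Pgam1 at 0.0057, each above the -0.42 of all features under that scaling, and none passed. Pseudogenes of these abundant enzymes exist, and whether they contribute to the probes' signal was not tested.

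Gapdh, Eno1 and Pkm, the other triose-phase enzymes of the list, did not pass. Gapdh encodes glyceraldehyde 3-phosphate dehydrogenase, a common loading control. It had ratios of -0.18, 0.51 and 0.43, and its 6 other kept probes ranged from -0.20 to 0.22, with 3 of them negative. Eno1, the main enolase of most tissues, had -0.012, 0.57 and 0.57 (95% interval of the mean -0.0062 to 0.76). Pkm, the pyruvate kinase of muscle and most other tissues, had -0.0061, 0.090 and 0.13, a mean of 0.073 (95% interval -0.11 to 0.26), and which splice form its probe reads was not examined.

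For these genes, on the probes used, the ratio was lowest on array 1, as was the median of the skeletal muscle markers. The median ratio of the 11 measured muscle markers was -3.11 on array 1, 2.33 on array 2 and 3.72 on array 3, and no marker was on the same side of 0 on all 3 arrays. Of enzymes typical of muscle, 3 that had this order were singled out after their values were seen. Pgam2, the muscle mutase, had -2.18, 1.88 and 2.34, Eno3, the muscle enolase, had -2.25, 1.38 and 1.93, and Pygm, the muscle glycogen phosphorylase, had -1.37, 1.16 and 1.30. Other muscle-type genes did not have it. Fbp2 had -0.92, -0.46 and -0.83, and Gys1 and Ldha (on the probe used) were on one side of 0 on all arrays. Gapdh (on the probe used), Eno1, Pkm and Ugp2 were below 0 on array 1 and above 0 on arrays 2 and 3. On array 1 Eno1 (-0.012) and Pkm (-0.0061) were close to 0. Ugp2 was at -0.26, 0.39 and 0.14. Some but not all other kept probes of Gapdh had this order, and a probe without it was at -0.29, -0.061 and -0.25. Pfkm (-0.24, -0.062 and 0.26) and Aldoa (0.10, 0.26 and 0.33) rose from array 1 to array 3. Tpi1, Pgk1 and Pgam1 were above 0 on all 3 arrays, at 0.34, 0.61 and 0.71 on array 1. The part of muscle RNA in all these values was not tested.

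**Figure D2:**
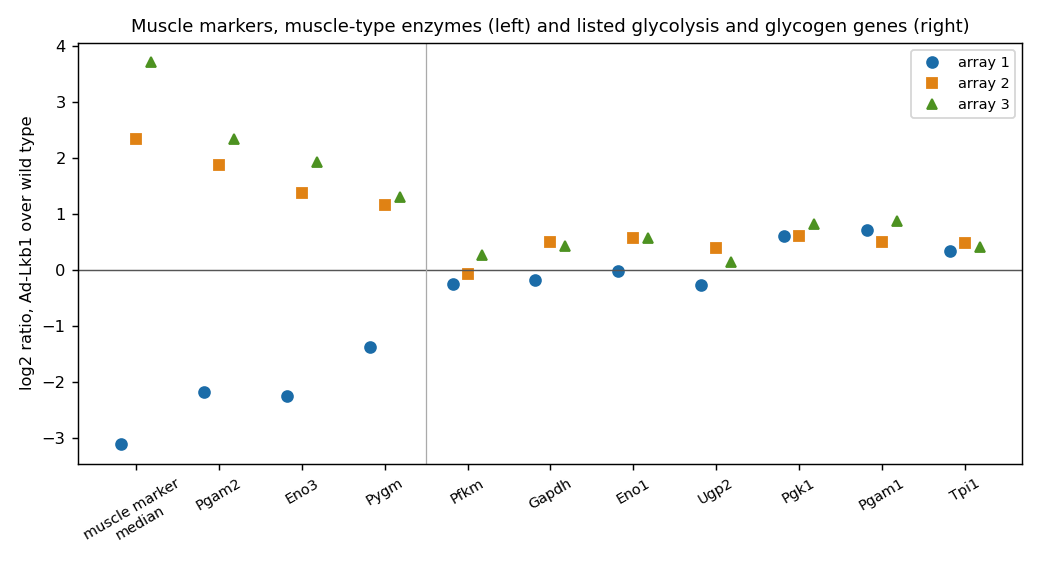
Log2 ratio of Ad-Lkb1 over WT (y axis) on each of the 3 arrays for the median of the 11 muscle markers and 3 muscle-type enzymes chosen after their values were seen (left of the line) and for 7 of the 36 genes (right). The muscle values lie below 0 on array 1 and above 0 on arrays 2 and 3. Gapdh (on the probe used), Eno1 and Ugp2 do so with smaller values, and Eno1 is close to 0 on array 1. Pgk1, Pgam1 and Tpi1 lie above 0 on all 3 arrays, and the part of muscle RNA was not tested.

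Of the 21 other genes of glycolysis and gluconeogenesis 18 were measured, and 4 passed, all lower. They were Fbp2, the muscle-type fructose bisphosphatase, at -0.74 (limma, adjusted p = 0.0353), Pcx, pyruvate carboxylase, at -0.60 (adjusted p = 0.0231), Slc37a4, which carries glucose 6-phosphate into the endoplasmic reticulum, at -0.89 (adjusted p = 0.0265), and G6pc3, a widely expressed glucose 6-phosphatase, at -0.35 (adjusted p = 0.0493). The G6pc3 call was lost under most alternatives, with -0.20 in the processed signals (adjusted p = 0.545). The calls of Fbp2 and Pcx were lost in the processed signals and in the value table, at ratios of -0.89 to -0.61. The Slc37a4 call was lost in the processed signals (limma, adjusted p = 0.0565) and without a filter on dim probes (adjusted p = 0.0533). The median of these 18 was 0.0067.

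The lactate and glycerol phosphate branch held 5 genes, and each had its ratio on one side of 0 on all arrays. Ldha and Slc16a3 passed as higher and Gpd2 as lower. The median was 0.34, with 4 ratios positive, and with centring on all probes it was -0.33, above the -0.42 of all features.

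Slc16a3 encodes MCT4, a transporter that exports lactate from glycolytic cells. Its log2 level was 7.69, 8.17 and 8.01 in Ad-Lkb1 samples, against 6.86, 6.76 and 7.14 in WT samples. The lowest Ad-Lkb1 sample was above the highest WT sample. The ratio was 1.03 (SD 0.33; 2.05-fold; limma, adjusted p = 0.0294), a second kept probe gave 1.02, and the value was 0.58 with centring on all probes. It was 1.41 with an offset of 10 and 1.72 in the processed signals. Without a filter on dim probes it did not pass (limma, adjusted p = 0.0619). Like Hk1 it was highest on array 2 and lowest on array 1, at 0.82, 1.41 and 0.87 on arrays 1 to 3. The macrophage marker median was highest on array 2 and lowest on array 3. The part of macrophage RNA was not tested.

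Ldha encodes the lactate dehydrogenase subunit of muscle, Ldhb that of heart. Ldha had log2 levels of 16.15, 16.05 and 16.20 in Ad-Lkb1 samples, against 15.57, 15.68 and 15.70 in WT samples. The samples of the 2 genotypes were separate for this probe, with a ratio of 0.48 (SD 0.10; 1.40-fold; limma, adjusted p = 0.0366). The gene's 2 other kept probes gave 0.11 and 0.12, and both were negative on arrays 2 and 3. The mean of its 3 probes was 0.24 and did not pass (adjusted p = 0.359), and centring on all probes gave -0.20. Ldhb had 0.30, 0.16 and 0.52 and did not pass (adjusted p = 0.109).

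Gpd1 and Gpd2 encode the cytosolic and the mitochondrial glycerol 3-phosphate dehydrogenase. Together they form the shuttle. Gpd2 had log2 levels of 12.21, 12.13 and 11.96 in Ad-Lkb1 samples, against 12.70, 12.63 and 12.31 in WT samples. Both genotypes had their lowest sample on array 3, and the groups did not overlap. The ratio was -0.45 (SD 0.084; 1.37-fold lower; limma, adjusted p = 0.0384). Gpd1 had 0.22, 0.34 and 0.46, a mean of 0.34 that did not pass (adjusted p = 0.0739). Gpd1 minus Gpd2 was 0.71, 0.84 and 0.82, the narrowest spread of the 12 pairs of related enzymes compared (SD 0.068), and it was 0.36 in the processed signals and in the deposited value table.

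Of 12 other genes of lactate and pyruvate handling 11 were measured, and 2 passed, both lower. Pdk1, a kinase that inhibits pyruvate dehydrogenase, had ratios of -1.03, -0.97 and -1.07 with a mean of -1.02 (limma, adjusted p = 0.0114). Ldhd, which oxidises the D form of lactate, was at -0.58 (adjusted p = 0.026). The Ldhd call was lost in the processed signals (limma, adjusted p = 0.192) and in the value table (adjusted p = 0.0917).

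In the pentose phosphate branch all 7 genes had negative ratios on all 3 arrays, from -0.75 to -0.26 in the mean. Over all features, 52.3% of the mean ratios were negative, and 51.8% of features kept their sign, in either direction, on all 3 arrays. The share of features negative on all 3 arrays was not counted. The branch median was -0.34, -0.29 and -0.44 on arrays 1 to 3. Tkt and Taldo1 passed, and both belong to the non-oxidative part, which links pentoses back to glycolysis. The branch median was below 0 in the 5 scalings tried. With centring on all probes it was -0.99, beside -0.42 for all features and -0.74 for the whole gene list. With centring on the kept probes it was -0.60, beside -0.034 and -0.35. Both centrings moved the listed genes down, so their more negative branch medians do not strengthen the loess result. The branch median was -0.29 in the processed signals and -0.41 in the deposited value table.

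Tkt encodes transketolase. Its log2 level was 15.33, 15.30 and 15.28 in Ad-Lkb1 samples, against 16.01, 16.07 and 16.08 in WT samples. Both groups were tight and far apart relative to their spread. The ratio was -0.75 (SD 0.066; 1.68-fold lower; limma, adjusted p = 0.0165). Taldo1, transaldolase, had 15.28, 15.27 and 15.24 in Ad-Lkb1 samples, against 15.64, 15.70 and 15.56 in WT samples. The groups were again separate, with a ratio of -0.37 (SD 0.057; 1.29-fold lower; adjusted p = 0.0473).

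Of the oxidative part, which makes NADPH, none of 3 genes passed in limma, and G6pdx and Pgd were under 0.05 before adjustment. G6pdx, the entry enzyme glucose 6-phosphate dehydrogenase, had -0.65, -0.065 and -0.49, a mean of -0.40 (95% interval -0.76 to -0.050; limma, adjusted p = 0.135). Pgls, the lactonase, had -0.012, -0.42 and -0.34, and Pgd, 6-phosphogluconate dehydrogenase, had -0.25, -0.18 and -0.44. The intervals of the means were -0.54 to 0.022 for Pgls and -0.51 to -0.069 for Pgd. The ribulose phosphate enzymes Rpia, the isomerase, and Rpe, the epimerase, had means of -0.28 (95% interval -0.64 to 0.092) and -0.26 (95% interval -0.46 to -0.055). At an adjusted p of 0.106 to 0.274 these 4 did not pass.

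Of 7 other pentose phosphate genes 6 were measured. H6pd, which runs the oxidative steps inside the endoplasmic reticulum, passed as lower, at -1.03, -1.10 and -0.75 with a mean of -0.96 (limma, adjusted p = 0.0185). The median of the 6 was -0.086.

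The glycogen branch was divided. Gys2 passed as higher, Pygl and Ppp1r3c passed as lower, and the other 4 genes did not pass. Its ratios spanned -1.78 to 0.95, the widest range of the 4 branches.

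Glycogen synthase has a muscle-type gene, Gys1, and a liver-type gene, Gys2. Gys2 had log2 levels of 12.80, 12.66 and 12.37 in Ad-Lkb1 samples, against 11.87, 11.62 and 11.49 in WT samples. Each Ad-Lkb1 sample was about equally far above its partner on the array, at 0.93, 1.03 and 0.88. The mean was 0.95 (SD 0.081; 1.93-fold; limma, adjusted p = 0.0125), the gene's other probe gave 0.66, and centring on all probes left 0.24. Gys1 had -0.42, -1.01 and -0.30, a mean of -0.58 that did not pass (adjusted p = 0.0987), and its other probe gave -0.55. Gys2 minus Gys1 was 1.35, 2.05 and 1.18.

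Glycogen phosphorylase releases glucose 1-phosphate from glycogen. Its liver-type gene Pygl had log2 levels of 14.18, 13.99 and 13.82 in Ad-Lkb1 samples, against 14.71, 14.85 and 14.90 in WT samples. The groups did not overlap, and the gap was widest on array 3. The ratio was -0.82 (SD 0.28; 1.77-fold lower; limma, adjusted p = 0.0342). The brain-type Pygb had -0.12, -0.35 and -0.35 and did not pass (adjusted p = 0.114). Pygl minus Pygb was -0.41, -0.51 and -0.73.

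Ppp1r3c encodes PTG, a scaffold that brings protein phosphatase 1 to glycogen and favours glycogen synthesis. Its log2 level was 9.17, 9.33 and 9.54 in Ad-Lkb1 samples, against 11.42, 11.49 and 10.46 in WT samples. All Ad-Lkb1 samples were below all WT samples, and the WT sample of array 3 was about 1 unit under the other WT samples. The ratio of -1.78 (SD 0.74; 3.43-fold lower; limma, adjusted p = 0.0391) was the largest in size of the 36 genes and also the most variable. Ugp2, which makes UDP-glucose for glycogen synthesis, had a mean of 0.090 (95% interval -0.29 to 0.47), and Gbe1, the branching enzyme, had one of 0.022 (95% interval -0.17 to 0.22).

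Of 23 other glycogen genes 19 were measured, 1 higher and 2 lower. The higher gene was Stbd1, whose protein binds glycogen and anchors it to membranes, with ratios of 1.65, 1.73 and 2.11 and a mean of 1.83 (limma, adjusted p = 0.0109). Gsk3b, a kinase that inhibits glycogen synthase, was at -0.66 (adjusted p = 0.04), and Phka2, the liver-type regulatory subunit of phosphorylase kinase, at -0.45 (adjusted p = 0.0468). Averaging the kept probes ended both calls, with Gsk3b at -0.42 (3 probes; adjusted p = 0.0809) and Phka2 at -0.26 (2 probes; adjusted p = 0.0983). The median of the 19 was -0.12.

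**Figure D3:**
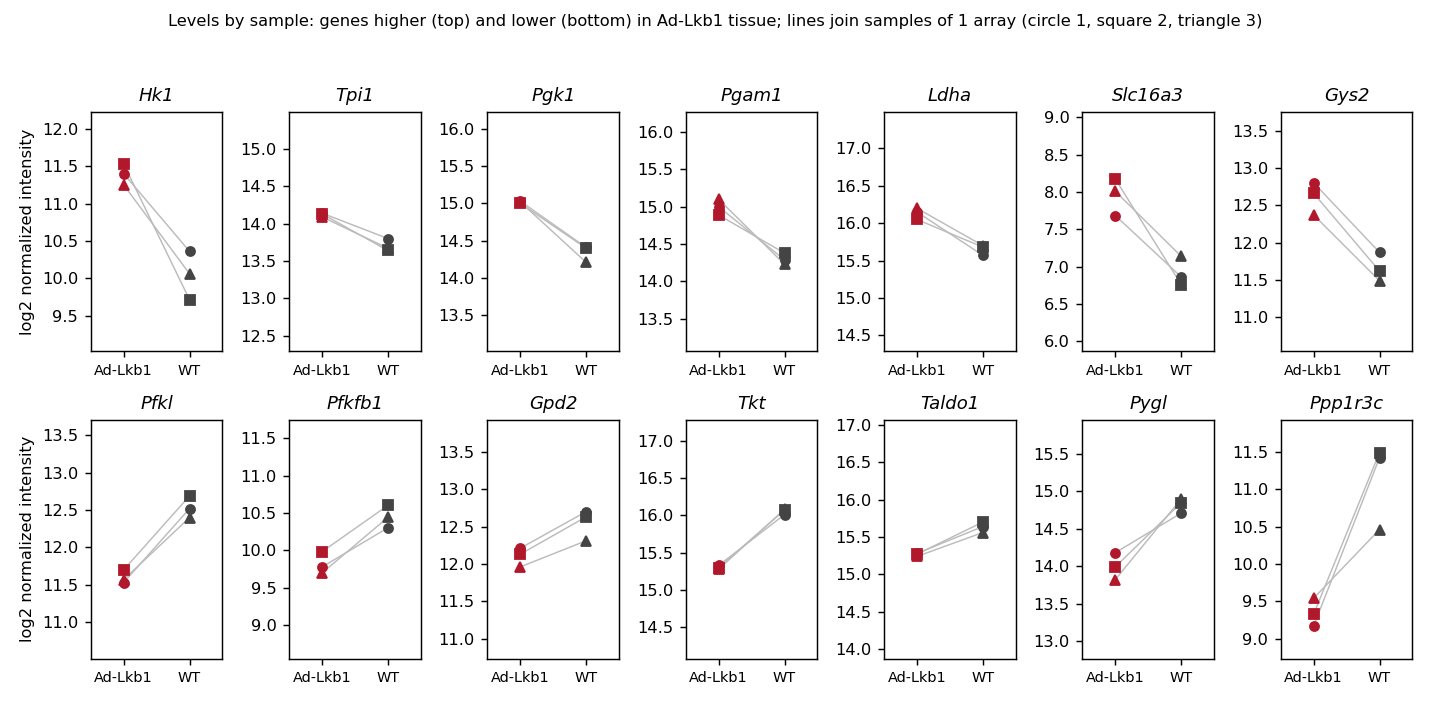
Normalised log2 intensity (y axis, the same span in every panel) in Ad-Lkb1 (left) and WT (right) samples for the 14 genes that passed, with the 7 higher genes on top and the 7 lower genes below. Lines join the 2 samples of an array (circle, square and triangle for arrays 1, 2 and 3), and the genotypes do not overlap in any panel.

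Related enzymes were set against each other as the difference of their ratios on an array, which does not shift when an array is centred on another value. Among 12 pairs, 9 differed in the same direction on all 3 arrays. An exact sign-flip permutation test over 3 arrays cannot give a two-sided p below 0.25, so none could pass, and the 9 pairs had p = 0.25 each (0.333 after Benjamini-Hochberg adjustment over the 12). The differences that spread least around their mean beside Gpd1 minus Gpd2 were Aldoc minus Aldoa (SD 0.15), Ldha minus Ldhb (mean 0.16, SD 0.16), Pygl minus Pygb (mean -0.55, SD 0.16) and Pfkl minus Pfkm (mean -0.92, SD 0.17). Ldha minus Ldhb changed direction with the mean of all kept probes, to -0.089. Pfkm minus Pfkp (mean 0.028, SD 0.47) and Pfkfb3 minus Pfkfb4 (mean -0.26, SD 0.80) did not keep a direction across arrays.

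The directions and the calls were compared across scalings. All 7 lower genes were below 0 under loess, both median centrings, the processed signals and the deposited value table. Of the 7 higher genes, Hk1, Slc16a3, Gys2 and Pgam1 were above 0 under these 5 scalings, and Tpi1, Pgk1 and Ldha were below 0 with centring on the median of all probes. That centring took the median of all features to -0.42 and that of the listed genes to -0.74. The shift differed between genes, with Slc16a3 going from 1.03 to 0.58 and Gys2 from 0.95 to 0.24. Centring on the kept probes left the median of all features at -0.034 but took that of the listed genes to -0.35. All 14 genes moved down under both centrings, which could therefore turn only higher genes. The signs of the lower genes under these centrings are thus no separate check. The processed signals kept 4 of the 14 calls, Hk1, Slc16a3, Gys2 and Tkt, and the deposited value table kept 4, Pfkl, Slc16a3, Gys2 and Tkt.

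**Figure D4:**
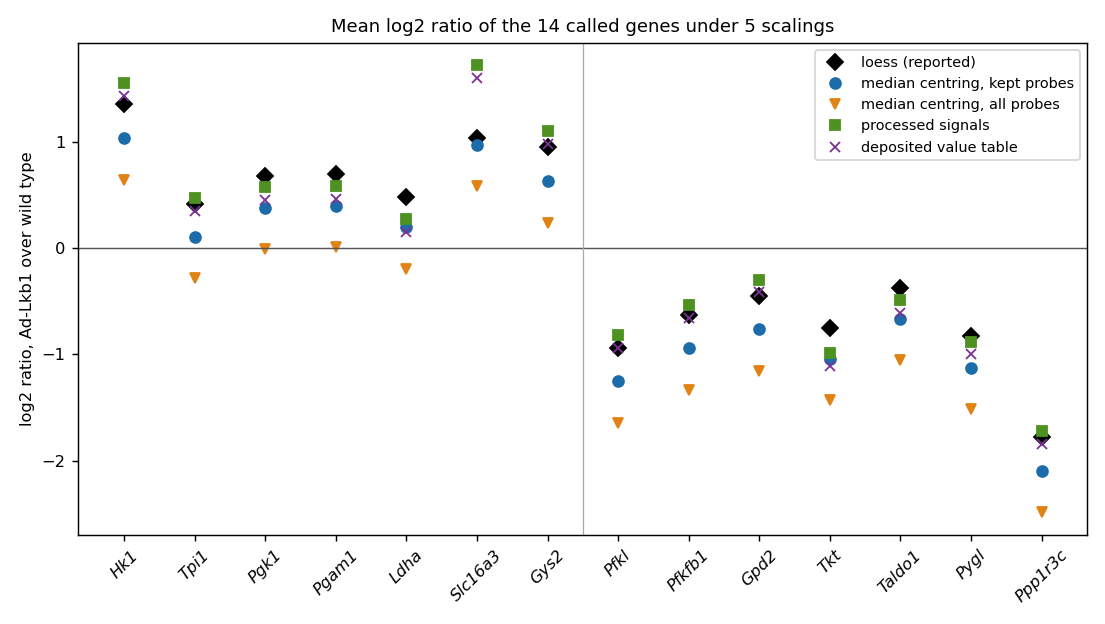
Mean log2 ratio of Ad-Lkb1 over WT (y axis) of the 14 genes that passed (x axis, the 7 higher genes left of the line), with 1 symbol for each of 5 scalings. Tpi1, Pgk1 and Ldha are below 0 with median centring on all probes, where Pgam1 is at 0.0057, and the 7 lower genes are below 0 under all 5 scalings.

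The promoters of the genes were read from a RefSeq table on GRCm38.p6, as 300 bases from 250 before to 50 after each start, for 34 of the 36 genes. Gpd1 and Gys2 were not matched in it. They were searched on both strands for ACGTG, the core of sites that hypoxia-inducible factors are known to bind at glycolytic genes, and for CACGTG, the E-box, which contains ACGTG. A match is a description of these letters and not a site. At least 1 promoter held ACGTG in 18 of 34 genes (52.9%), against 28.4% of 10439 tested genes with a promoter in the table. Taken by promoter, the share was 21 of 52 (40.4%), against 19.6% of all 32851 promoters of the table, of tested genes or not. By gene, the share over all 27025 genes of the table was 21.8%, lower than among the tested genes. In the count by promoter a gene with several starts has more weight. Among the genes that passed, the share was 5 of 6 higher (83.3%) and 3 of 7 lower (42.9%), and in the pentose phosphate branch it was 1 of 7 (14.3%). CACGTG was in 4 of 34 genes (11.8%), about the share among tested genes (1201 of 10439).

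The promoters of 5 genes described above are given to show what matches look like, 3 of higher and 2 of lower genes, and they were chosen after the matches were seen. They are printed 5′ to 3′ on the gene's strand, with matches on either strand in capitals. Pgk1 lies at chrX:106186850-106187149 on the plus strand, Ldha at chr7:46845554-46845853 on the plus strand, and Slc16a3 at chr11:120948817-120949116 on the plus strand. Tkt lies at chr14:30548881-30549180 on the plus strand and Ppp1r3c at chr19:36736555-36736854 on the minus strand.
Pgk1: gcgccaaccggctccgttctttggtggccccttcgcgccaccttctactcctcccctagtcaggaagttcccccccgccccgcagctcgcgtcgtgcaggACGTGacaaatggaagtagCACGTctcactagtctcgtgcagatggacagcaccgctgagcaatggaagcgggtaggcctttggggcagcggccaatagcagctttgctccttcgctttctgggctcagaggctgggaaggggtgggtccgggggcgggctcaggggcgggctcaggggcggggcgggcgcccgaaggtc
Ldha: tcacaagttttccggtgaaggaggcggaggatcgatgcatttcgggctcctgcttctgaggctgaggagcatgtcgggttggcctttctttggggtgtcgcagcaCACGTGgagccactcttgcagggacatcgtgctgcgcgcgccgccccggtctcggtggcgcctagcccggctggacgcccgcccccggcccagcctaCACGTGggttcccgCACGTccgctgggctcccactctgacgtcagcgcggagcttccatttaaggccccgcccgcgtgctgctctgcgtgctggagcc
Slc16a3: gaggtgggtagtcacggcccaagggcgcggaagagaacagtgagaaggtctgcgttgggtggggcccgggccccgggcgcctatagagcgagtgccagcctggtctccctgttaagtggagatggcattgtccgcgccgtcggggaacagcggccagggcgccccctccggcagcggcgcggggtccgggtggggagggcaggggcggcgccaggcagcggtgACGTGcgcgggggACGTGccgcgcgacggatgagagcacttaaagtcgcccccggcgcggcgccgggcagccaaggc
Tkt: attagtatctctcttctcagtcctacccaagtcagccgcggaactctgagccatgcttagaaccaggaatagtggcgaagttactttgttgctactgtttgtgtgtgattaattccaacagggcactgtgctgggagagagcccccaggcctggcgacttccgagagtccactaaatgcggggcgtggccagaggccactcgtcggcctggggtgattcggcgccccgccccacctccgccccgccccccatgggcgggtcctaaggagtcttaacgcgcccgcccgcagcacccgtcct
Ppp1r3c: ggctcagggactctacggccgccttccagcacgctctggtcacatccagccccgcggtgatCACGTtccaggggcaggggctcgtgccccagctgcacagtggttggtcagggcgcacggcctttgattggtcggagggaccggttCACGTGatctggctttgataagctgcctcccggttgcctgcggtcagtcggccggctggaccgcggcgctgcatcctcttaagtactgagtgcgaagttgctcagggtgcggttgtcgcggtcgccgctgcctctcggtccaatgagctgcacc
The higher genes Pgk1 and Slc16a3 held ACGTG without the E-box, and Ldha held both. Tpi1, a higher gene not printed, held neither. Of the lower genes, Tkt held neither in this window, and Ppp1r3c held both. GCGTG, present in the printed Tkt and Ldha promoters among others, was not searched or marked.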

How the data were processed

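The deposited scanner files give, per the file headers, the median intensity of each spot and its local background in Cy5 (Ad-Lkb1) and Cy3 (WT), intensities that Agilent Feature Extraction (11.5, per the submitters' processing notes) had background-subtracted and dye-normalised, and a log10 ratio of these. The deposited value table holds the same log10 ratio. No per-sample column was left unused (0). The files hold no mean signals, so the median values were taken.

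Local background was removed by normexp with an offset of 50, arrays were normalised by loess (limma 3.58.1, R 4.3.3), and 25031 of 55681 probes were kept. Of all probes 28026 matched a RefSeq symbol through their accession. Per-channel levels followed loess and Aquantile scaling. Log2 ratios were tested against 0 with lmFit and eBayes over all 19328 features, with Benjamini-Hochberg adjustment. The offset shrinks ratios of dim probes.

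Features well above background made up 46.7% to 51.3% per channel, no spot was saturated (0), and the number of arrays, 3, limits the precision. Ratios correlated across genes, which are not independent replicates, at r = 0.73 (arrays 1 and 2), 0.36 (1 and 3) and 0.50 (2 and 3). All arrays shared 1 slide and 1 scan.

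On simulated arrays with 19328 features the procedure recovered 68.7% of genes changed by 0.5 on the log2 scale, 98.5% at 1 and 100% at 2. Of the calls 1.66% were false, and median estimates were 0.37, 0.77 and 1.44. The simulated noise was independent between probes, few features changed, equally often up and down, and the dye trend was smooth. The real arrays share variation between genes, as the muscle markers do, and dye and genotype are confounded. These shares are therefore not error rates of the real calls.

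The genes, lists and marker genes were chosen with earlier results of these data known. The genes named were all 36, Stk11 and Ucp1, and those past the threshold in the companion lists. Pgam2, Eno3 and Pygm were singled out after their values were seen. Alternatives were another normalisation, background correction, filter, probe choice or source of values, and leaving out each array. Centring on the kept probes was added after seeing the data.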

Additional observations from a re-analysis of the deposited data

How the results depend on the processing

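No paired analysis was possible beyond the main one, because each array already pairs 1 Ad-Lkb1 and 1 WT sample in its ratio, so there is no second fit with a replicate block. Counts are given as higher and lower in Ad-Lkb1 tissue. With loess they were 923 and 758 for all features, 7 and 7 for the 36 genes, 4 and 2 for glycolysis, 2 and 1 for lactate and glycerol phosphate, 0 and 2 for pentose phosphate, and 1 and 2 for glycogen.

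Centring on the median of all probes gave 389 and 9708 for all features, 1 and 21 for the 36 genes, 0 and 8 for glycolysis, 1 higher for lactate and glycerol phosphate, 7 lower for pentose phosphate, and 0 and 5 for glycogen. Centring on the kept probes gave 2433 and 3618 for all features, 3 and 14 for the 36 genes, 1 and 4 for glycolysis, 1 higher for lactate and glycerol phosphate, 5 lower for pentose phosphate and 4 lower for glycogen. The processed signals gave 880 and 230 for all features, 3 and 1 for the 36 genes, 1 and 0 for glycolysis, 1 and 0 for lactate and glycerol phosphate, 1 lower for pentose phosphate and 0 lower for glycogen. The deposited value table gave 526 and 280 for all features, 2 and 2 for the 36 genes, 0 and 1 for glycolysis, 1 and 0 for lactate and glycerol phosphate, 1 lower for pentose phosphate and 0 lower for glycogen. Without a filter on dim probes there were 541 and 492 for all features, 4 higher of the 36 genes, 2 higher for glycolysis, 1 higher for lactate and glycerol phosphate and 0 lower for glycogen. Without background subtraction and with an offset of 10, lactate and glycerol phosphate had 1 and 0, and with that offset pentose phosphate had 1 lower. When all kept probes of a gene were averaged, lactate and glycerol phosphate had 1 higher.

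Leaving out an array gave ranges of 0 to 1332 higher and 0 to 720 lower over all features, 0 to 5 and 0 to 6 for the 36 genes, 0 to 3 and 0 to 2 for glycolysis, 0 to 1 and 0 to 1 for lactate and glycerol phosphate, 0 to 1 lower for pentose phosphate, and 0 to 1 and 0 to 2 for glycogen. The zeros come from the fits without array 1 or without array 2.

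These mean ratios turned sign. With centring on all probes Gpi1 was at -0.54, Pfkfb4 at -0.27, Aldoa at -0.44, Tpi1 at -0.28, Gapdh at -0.43, Pgk1 at -0.014, Eno1 at -0.31, Pkm at -0.62, Ldha at -0.20, Ldhb at -0.37, Gpd1 at -0.33, Ugp2 at -0.63 and Gbe1 at -0.68. With centring on the kept probes Gpi1 was at -0.15, Aldoa at -0.045, Gapdh at -0.036, Pkm at -0.23, Ugp2 at -0.24 and Gbe1 at -0.29. In the value table Gpi1 was at -0.063, Pfkm at 0.025, Pfkp at 0.066, Aldoa at -0.21, Gapdh at -0.13, Pkm at -0.051, Gpd1 at -0.062 and Gbe1 at -0.15. In the processed signals Pfkm was at 0.15, Pfkp at 0.19, Pfkfb3 at 0.051, Aldoa at -0.091, Gapdh at -0.012 and Gbe1 at -0.029. Without background subtraction Pfkm was at 0.033, Pfkp at 0.015, Pkm at -0.0065 and Gbe1 at -0.013, and with an offset of 10 they were at 0.033, 0.016, -0.0090 and -0.015. With the mean of its probes Pfkp was at 0.0065. Leaving out an array turned Pfkm, with a range of -0.15 to 0.10, Pfkp (-0.13 to 0.092), Pfkfb3 (-0.30 to 0.21), Ugp2 (-0.062 to 0.27) and Gbe1 (-0.029 to 0.055). Of the genes that passed, Tpi1, Pgk1 and Ldha turned, all with centring on all probes. The cause of these changes was not tested.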
